A study of Mus musculus with 4 samples.

Results

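The interleukins and colony-stimulating factors described here are Il6, Il11 and Lif, the IL-1 family members Il1a, Il1b, Il1rn and Il33, and the growth factors of myeloid cells Csf1, Csf2 and Csf3. They were taken by gene name from the array's own probe annotation. Of these 10 genes, 9 had a probe of that name, and Lif, a cytokine of the IL-6 family, was not analysed here. The 9 genes were covered by 11 probes, and 3 of the 9, Csf1, Il6 and Il11, were bright enough in enough channels to enter a comparison across 12367 genes, out of 28307 genes with a probe.

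The cells were cultured smooth muscle cells from the aorta of mice, of the strain given as C57LB/6, grown in DMEM/F-12 with 10% FBS (fetal bovine serum) and used between passages 4 and 10. One group was Atg7F/F SM22α-Cre+ and the other Atg7+/+ SM22α-Cre+, so both made Cre from SM22α, a promoter of smooth muscle cells, and they differed in the floxed Atg7 alleles. Atg7 encodes an enzyme needed to form autophagosomes. RNA of 2 biological replicates per genotype was hybridised on 4 Agilent 2-colour arrays of one slide, each replicate pair once in each dye orientation, so that every probe was read in 8 channels.

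IL-6, IL-11 and LIF signal through the shared receptor subunit gp130, encoded by Il6st, and through JAK kinases and STAT3. IL-1α and IL-1β bind Il1r1 and act through MyD88 and IRAK kinases on NF-κB, the receptor antagonist encoded by Il1rn occupies the same receptor without signalling, and IL-33 binds Il1rl1. M-CSF, GM-CSF and G-CSF, encoded by Csf1, Csf2 and Csf3, support macrophages, myeloid cells and neutrophils, and vascular smooth muscle cells are a known source of IL-6 and M-CSF.

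The probes are 60 bases long, and the parts shown are the stretches through which the values below were read. Positions were taken from the deposited probe annotation (mm9), and exons or UTRs of that build were not used here. The positions below are those of the whole probe. For the members that were measured, 30 bases of each probe are given 5′ to 3′, bases 31 to 60 for Il11, where ATTTA lies, and bases 1 to 30 for the others. The letters ATTTA, the core of the AU-rich elements of many unstable cytokine mRNAs, are in capitals.
Csf1, minus strand, chr3:107544333-107544392: tgtggggcttacttagccttctggttacag
Il6, plus strand, chr5:30346362-30346421: atattctgttacctagccagatggtttctt
Il11, minus strand, chr7:4724847-4724906: tcttcctcacttcctacattATTTAttaaa
Il33, plus strand, chr19:30034990-30035049: tcgtacggctgtaacaggtataattgtttc
ATTTA was searched on the probe strand only. It occurred in 2 of the 11 member probes, those of Il11 and Csf3, against 9.16% of all 41174 probes.

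The pairs of probes for Il1rn and Il1a are of interest because their members lie apart in the gene. The Il1rn probe A_51_P307166 spans 1021 bp of the genome, chr2:24203035-24204055 on the plus strand, and the Il1a probe A_51_P438283 spans 1735 bp, chr2:129128725-129130459 on the minus strand, so both cross an intron and match spliced mRNA. The other Il1rn probe, A_52_P431159, lies further along at chr2:24206125-24206184, and its first 30 bases are given.
Il1rn, A_51_P307166: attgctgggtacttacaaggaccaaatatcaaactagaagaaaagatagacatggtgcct
Il1rn, A_52_P431159: tttcttgaccattcattttatcacttctaa
Il1a, A_51_P438283: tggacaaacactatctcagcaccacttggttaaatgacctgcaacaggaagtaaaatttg

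As a check of the labels, the Atg7 probe that was above background gave log2 ratios of Atg7F/F over Atg7+/+ of -1.26 and -1.09 on the replicate 1 arrays and -0.96 and -1.57 on the replicate 2 arrays, a mean of -1.22 ± 0.07 (SD, n = 2). A second Atg7 probe stayed at background on each array, and the labels do not name the floxed exon, so the sources used here do not tell whether these probes fall within the deletion. Both genotypes expressed 7 of 8 smooth muscle marker genes well above background on all 4 arrays. Per channel, 43.3% to 45.5% of spots carried that flag and 0 were saturated. The RNA is from whole cultures, in which fewer cells of a type and less RNA per cell cannot be told apart.

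Of the 11 member probes, 6 were not well above background in any channel. The scanner software calls a spot well above background when it clears its local background by a set margin. By that flag Csf1, Il6 and Il11 were measured in 8 of 8 channels, Il33 in 5 of 8, one Il1rn probe in 1 of 8, and the 6 other probes, those of Il1a, Il1b, Csf2 and Csf3 and the intron-spanning Il1rn probe, in 0 of 8. In all, 30 of the 88 readings of the 11 probes were well above background, and 39 passed the software's weaker flag for a positive and significant signal.

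**Figure D1:**
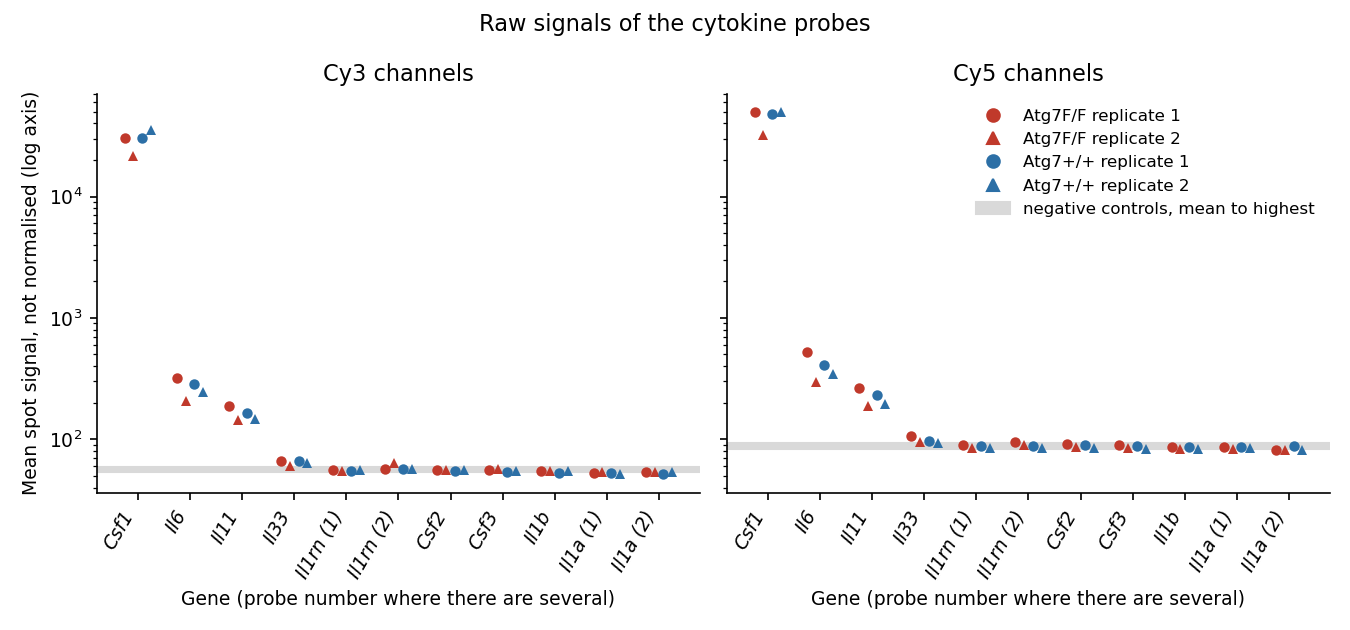
Mean spot signal of each member probe before normalisation, on a log axis, in the Cy3 and the Cy5 channels, with colours for genotype and symbols for replicate. The grey band runs from the lowest mean of the negative control spots to their highest spot; Csf1, Il6 and Il11 lie clear of it and Il33 just above it, and brightness is not to be compared between probes.

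Csf1, which encodes the macrophage growth factor M-CSF, was bright in every channel and was lower in the Atg7F/F cells of replicate 2 only. In Cy3 the mean signal of its 10 spots was 30529 in Atg7+/+ and 30099 in Atg7F/F of replicate 1, and 35660 in Atg7+/+ and 21765 in Atg7F/F of replicate 2. In Cy5 the same extracts gave 48150, 50037, 49534 and 32017. The Atg7F/F extract of replicate 2 was the lowest in both dyes, and in Cy3 the other 3 extracts lay between 30099 and 35660.

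After normalisation the Csf1 log2 ratio of Atg7F/F over Atg7+/+ was 0.0035 and -0.0069 on the replicate 1 arrays and -0.73 and -0.60 on the replicate 2 arrays. On both replicate 2 arrays 10 of 10 spots lay below 0, with an SD between spots of 0.030 and 0.033, whereas in replicate 1 the spots lay on both sides, 6 and 4 of 10 above 0. The difference in replicate 2 was therefore far larger than the error between spots and, after loess, appeared in both dye orientations, but it was not shared by the other pair of extracts. The mean was -0.33 ± 0.47 (SD, n = 2), with a 95% interval from -0.96 to 0.30 and an adjusted p of 0.9998 (limma). That is a 1.26-fold lower mean in Atg7F/F, with an interval that includes no change. Without replicate 2 the ratio was -0.0017, without replicate 1 it was -0.67, and centring each array on its median in place of loess gave -0.19. With that centring, which leaves a dye effect that varies with brightness on each array, the replicate 2 arrays were at 0.21 and -1.01.

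Normalised log2 levels of Csf1, averaged over the dyes, were 15.20 in both extracts of replicate 1, 15.38 in the Atg7+/+ extract and 14.71 in the Atg7F/F extract of replicate 2. The difference in replicate 2 came with a high Atg7+/+ and a low Atg7F/F value, and the genotypes were separated by only 0.0017 in replicate 1. Markers of endothelial cells, which also make M-CSF, were mostly lower in Atg7F/F in both pairs, and their sum more so in replicate 2. The summed signal of 10 endothelial genes was 11973 to 13450 in Atg7F/F and 13694 to 25873 in Atg7+/+ channels. Of the 10, 9 were lower in Atg7F/F on every array (8 with median centring), Emcn being the exception, against 9.94% of all genes tested. The log2 ratio of the sums of these genes was -0.19 in replicate 1 and -0.91 in replicate 2. The single genes did not all share that contrast, as the SD of their ratio between replicates ran from 0.03 for Kdr to 1.07 for Emcn (n = 2). Their part in the Csf1 result was not tested.

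Il6, the acute inflammatory cytokine of this family, was measured in every channel at modest brightness. In Cy3 its 10 spots averaged 283 in Atg7+/+ and 321 in Atg7F/F of replicate 1, and 246 and 208 in replicate 2. In Cy5 the same order of extracts gave 412, 526, 348 and 298. The Atg7F/F extract was the higher of its pair in replicate 1 and the lower in replicate 2, in both dyes, so the genotypes overlapped.

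The 4 arrays gave Il6 log2 ratios of 0.40, 0.11, 0.014 and -0.30. In replicate 1 the 10 spots of each array lay above 0, on the first replicate 2 array 5 of 10 did, and on the second 0 of 10 did. The dye orientation moved the ratio by a like amount in both pairs, with a half-difference of 0.146 and 0.155, and averaging the orientations left 0.25 and -0.14. The mean was 0.06 ± 0.28 (SD, n = 2), with a 95% interval from -0.37 to 0.48 and an adjusted p of 0.9998 (limma). Without replicate 1 the sign was reversed, at -0.14.

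**Figure D2:**
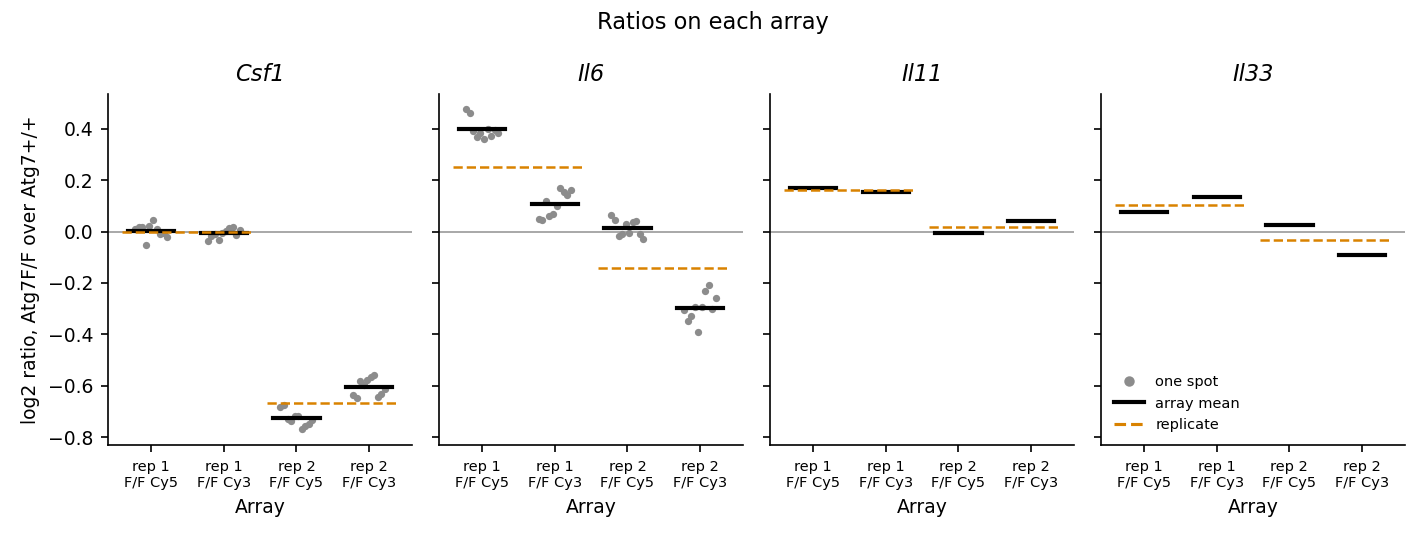
Normalised log2 ratio of Atg7F/F over Atg7+/+ on each of the 4 arrays for Csf1, Il6, Il11 and Il33, with grey points for single spots where a probe has 10 of them, black bars for array means and dashed lines for the mean of a dye swap. All 10 Csf1 spots lie below 0 on both replicate 2 arrays and around 0 on the replicate 1 arrays, and Il6 shifts between dye orientations within each replicate.

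Il11, a gp130 cytokine made by stromal cells and by activated smooth muscle, had a single spot per array and was close to equal in the genotypes. Its Cy3 signal was 165 in Atg7+/+ and 188 in Atg7F/F of replicate 1 and 148 and 143 in replicate 2, and its Cy5 signal was 234, 265, 195 and 188 in the same order. Both genotypes read higher in replicate 1, and they overlapped. The log2 ratios were 0.17, 0.15, -0.0073 and 0.043, the mean was 0.09 ± 0.10 (SD, n = 2), the 95% interval ran from -0.20 to 0.38, and the adjusted p was 0.9998 (limma).

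None of the 3 genes had one sign on all 4 arrays. Of all 12367 genes, 10.6% were higher and 9.94% lower in Atg7F/F on all 4 arrays, and with median centring 601 were higher and 265 lower in place of 1309 and 1229. An adjusted p below 0.05 was reached by 0 genes, while 368 (2.98%) had an unadjusted p below 0.05 by limma. Atg7 itself, at -1.22 ± 0.07 (SD, n = 2), was thus not called either. With n = 2 the intervals above still include falls or rises of moderate size, and an absence of a difference cannot be read from them.

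**Figure D3:**
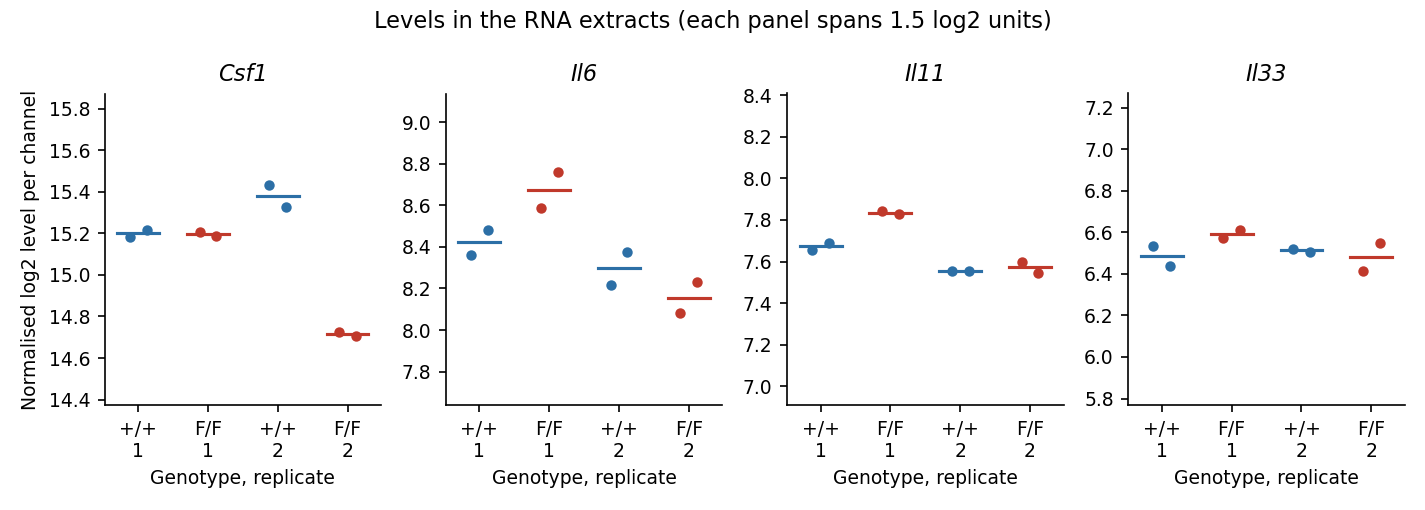
Normalised log2 level of Csf1, Il6, Il11 and Il33 in each channel (points, one per dye) and its mean in each RNA extract (bars), by genotype and replicate, in panels that each span 1.5 log2 units. Csf1 stands at 14.71 in the Atg7F/F extract of replicate 2 and at 15.20 to 15.38 in the others, while in the Il6, Il11 and Il33 panels the genotypes overlap.

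Il33, an alarmin held in the nucleus of stromal and endothelial cells, was at the edge of detection. Its Cy3 signal was 66.6 in Atg7+/+ and 66.3 in Atg7F/F of replicate 1 and 64.4 and 60.5 in replicate 2. Its Cy5 signal was 97.8 and 106.5 in replicate 1 and 93.0 and 94.7 in replicate 2. Each of the 8 readings exceeded the brightest negative control spot of its channel, where negative controls averaged 53.3 to 55.1 in Cy3 and 82.5 to 87.2 in Cy5 (146 to 149 spots each).

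The well-above-background flag was set for Il33 in 2 of 4 Atg7F/F channels, both of replicate 1, and in 3 of 4 Atg7+/+ channels. It therefore missed the filter of the comparison and was not tested. Its log2 ratios were 0.08, 0.13, 0.03 and -0.09, on both sides of 0. The authors' deposited table, which uses the software's processed signals, lists 0.18, 0.32, 0.03 and -0.90 for the same arrays. The last of these was far larger than the ratio found here, where an offset of 50 pulls dim ratios towards 0.

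Il1rn, which encodes the IL-1 receptor antagonist, gave a trace of signal through one probe only. The probe A_52_P431159 read 64.1 in the Cy3 channel of Atg7F/F replicate 2, where it was well above background, and 56.5 to 57.3 in the other Cy3 channels. In Cy5 it read 94.9 and 89.9 in Atg7F/F and 88.2 and 84.5 in Atg7+/+ of replicates 1 and 2. It exceeded the brightest negative control spot in 4 of 8 channels. These were Atg7F/F of replicates 1 and 2 in Cy5, and Atg7F/F of replicate 2 and Atg7+/+ of replicate 1 in Cy3. The intron-spanning probe A_51_P307166 exceeded that spot in 0 of 8, at 55.0 to 56.3 in Cy3 and 84.4 to 89.1 in Cy5.

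For A_52_P431159 the authors' deposited table lists log2 ratios of 0.54, 0.87, 1.36 and 2.69, all towards Atg7F/F, while the ratios computed here were -0.01, 0.04, 0.01 and 0.15. The software had replaced the Atg7+/+ signal by a surrogate value in Cy5 of both replicates, the arrays with 0.87 and 2.69. The ratios of 0.54 and 1.36 came from channels without a surrogate. For the probe A_51_P307166 the table lists 0.22, -0.13, 0.09 and -0.06, with a surrogate in all 8 channels. No fold change is given for Il1rn, because neither genotype was well above background on all arrays.

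The other IL-1 ligands and myeloid growth factors lay within the negative controls. The probes of Il1a read 51.3 to 53.9 and 51.7 to 54.0 in Cy3, that of Il1b 53.1 to 55.1, that of Csf3 54.0 to 56.5 and that of Csf2 54.4 to 56.3. In Cy5 the ranges were 83.4 to 87.2 and 81.0 to 88.1 for Il1a, 82.7 to 87.1 for Il1b, 82.8 to 89.9 for Csf3 and 85.4 to 91.9 for Csf2. No probe mean of these 4 genes exceeded the brightest negative control of its channel, and for Il1b and Csf2 each mean is over 10 spots.

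One Csf2 spot stood apart. On every array the same 1 of its 10 spots was well above background in Cy5, at 107, 104, 106 and 97.9, while the other 9 averaged 90.2, 87.8, 85.0 and 84.1 with an SD of 1.4 to 2.4. In Cy3 that spot read 54.0 to 56.2 and was not above background. The excess was thus in Cy5 alone, with either genotype in that channel.

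The receptors for these ligands were mostly measured, 9 of 13, and 0 passed the adjusted threshold (limma). Of the 9, 2 were higher in Atg7F/F on all 4 arrays and 0 lower, against 10.6% and 9.94% of all genes tested. Their median log2 ratio was 0.07, against 0.003 for all genes tested. Il1r1, the signalling receptor of IL-1α and IL-1β, had ratios of 0.83, 0.54, 0.28 and 0.06 and a mean of 0.43 ± 0.36 (SD, n = 2), adjusted p 0.9998 (limma). Csf1r, the receptor of M-CSF and a macrophage gene, had ratios of 0.08, 0.09, 0.17 and 0.28, a mean of 0.16 ± 0.10, and 0.07 by its other probe. Both were above 0 on every array, more so in replicate 1 for Il1r1 and in replicate 2 for Csf1r, but with median centring in place of loess the lowest array was at -0.15 for Il1r1 and -0.03 for Csf1r and 0 receptors kept one sign.

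Il11ra1, the IL-11 receptor, differed most between the replicates among the receptors, at -0.37 in replicate 1 and 0.51 in replicate 2. Il1rap, the co-receptor of Il1r1 and Il1rl1, went the same way at -0.22 and 0.36, as did gp130 (Il6st) at -0.08 and 0.26. The remaining receptor means were close to 0, with Il6ra at -0.04 ± 0.11, Lifr at -0.02 ± 0.02, Il1rl1 at -0.02 ± 0.13 and Csf2ra at 0.05 ± 0.17 (SD, n = 2). Il1r2, Csf2rb2 and Csf3r stayed at background on all 4, and Csf2rb was well above background in Atg7F/F on 2 arrays and in Atg7+/+ on 3.

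The kinases, adaptors and STAT factors below these receptors were nearly all measured, 16 of 18, with a median ratio of 0.01 and 0 called. On all 4 arrays 2 were higher and 0 lower, against 10.6% and 9.94% of all genes tested. The smallest unadjusted p-values belonged to Tab1, an adaptor of the kinase TAK1, at 0.20 ± 0.18, Ptpn11, the phosphatase SHP2, at 0.15 ± 0.11, Myd88 at 0.14 ± 0.14 and Irak2 at -0.11 ± 0.23 (SD, n = 2). The other Ptpn11 probes were at -0.03 and -0.02. Stat3, the main STAT of the gp130 cytokines, was at 0.04 ± 0.10, and Jak1 at 0.01 ± 0.05. None passed the threshold, and with median centring 0 were higher and 1 lower on all 4 arrays.

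Among inhibitors and feedback regulators, 11 of 13 were measured, with a median of -0.04 and 0 called. On all 4 arrays 1 was higher and 4 were lower, against 10.6% and 9.94% of all genes tested. Socs1, a cytokine-induced inhibitor of JAK kinases, was higher on each array, at 0.27, 0.24, 0.49 and 0.62, with a mean of 0.41 ± 0.21 (SD, n = 2). It was the only gene of the 6 lists described here with an unadjusted p below 0.05, a mark reached by 2.98% of all genes, and its adjusted p was 0.9998 (limma). Socs3, the feedback inhibitor of gp130, was at 0.04 in replicate 1 and 0.64 in replicate 2. The STAT5-induced Cish was at -0.17 ± 0.0068 and Socs2 at -0.20 ± 0.07. The small SD of Cish is between dye-swap means, and its single arrays ran from -0.28 to -0.05, or up to 0.07 with median centring. With median centring Socs1 was still above 0 on each array, from 0.08 to 0.83, and 0 inhibitors were lower on all 4.

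Of 10 genes that process or release IL-1 family cytokines, 7 were measured, the median was -0.11 and 0 were called. On all 4 arrays 1 was lower and 0 higher, against 9.94% and 10.6% of all genes tested. Gsdmd, the pore-forming gasdermin D, was lower on each array, with a mean of -0.25 ± 0.10 (SD, n = 2), though with median centring the highest array was at 0.15. Pycard, the inflammasome adaptor ASC, was at -0.08 in replicate 1 and -0.74 in replicate 2, and Casp4, an inflammatory caspase, was at 0.995 and -0.04. Capn2, a subunit of calpain, a protease that cleaves pro-IL-1α, was at 0.05 and -0.49. Nlrp3, Aim2 and Nlrc4, the sensors that assemble inflammasomes, gave no reading well above background.

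Genes known to be induced by IL-1, IL-6 or LIF were measured in 12 of 18 cases, with a median of 0.01 (-0.12 with the software's processed signals) and 0 called. On all 4 arrays 3 were higher and 0 lower, against 10.6% and 9.94% of all genes tested. Bcl3, an atypical IκB protein, had ratios of 0.16, 0.34, 0.78 and 1.28 and a mean of 0.64 ± 0.55 (SD, n = 2), and with median centring it was the 1 gene of this list still above 0 on every array. Cebpb, a transcription factor of the acute phase response, was at 0.07 and 0.58 in replicates 1 and 2, the adhesion receptor gene Icam1 at -0.43 and -0.02, and Timp1, an inhibitor of metalloproteinases, at -0.04 and -0.37. Their means were 0.32, -0.23 and -0.21, and by their other probes 0.14, -0.11 and -0.25. The spread between replicates was as large as the mean or close to it for Bcl3 and each of these. Saa3, an acute phase gene named after its values were seen, missed the filter and was well above background in Atg7F/F on 3 arrays and in Atg7+/+ on 0. Its signal in replicate 1 was 114 in Atg7F/F and 92.1 in Atg7+/+ in Cy5 and 76.8 and 58.9 in Cy3, and in replicate 2 it was 91.5 and 89.4 in Cy5 and 63.8 and 59.3 in Cy3. The genotypes were apart in replicate 1 and close in replicate 2.

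Some pathway genes split between the replicates as Csf1 did, or more; they were chosen for this after their values were seen. The chemokine gene Ccl2 was at 0.50 in replicate 1 and -0.95 in replicate 2, and Ccl7 at 0.29 and -1.19. Cebpd was at -0.54 and 1.30, and Il34, which encodes the other ligand of the M-CSF receptor, at -0.37 and 0.68. In replicate 2, Csf1, Ccl2 and Ccl7 were thus lower in Atg7F/F and Il34 and Cebpd higher, each with one sign on both dye orientations after loess. With median centring Ccl2 was at 0.03 and -1.54 on the replicate 2 arrays, while Ccl7, Il34 and Cebpd kept their sign there. On the replicate 1 arrays that centring gave 1.14 and -0.12 for Ccl2 and 0.67 and -0.07 for Ccl7, while Il34 and Cebpd stayed below 0. The summed signal of 13 macrophage and leukocyte markers, 7 of which, among them Ptprc, Adgre1 and Itgam, stayed at background, had a log2 ratio of -0.29 in replicate 1 and 0.41 in replicate 2. It ranged from 2652 to 5431 in Atg7F/F and from 3269 to 4032 in Atg7+/+ channels, and its part in these values was not tested. The single markers differed. Their median log2 ratio of -0.003 was the value of Itgam, one of the 7 at background, where the offset pulls ratios towards 0. That median therefore cannot show how the measured markers behaved. On all 4 arrays 1 of the 13, the receptor gene Csf1r described above, was higher and 2 were lower in Atg7F/F, against 10.6% and 9.94% of all genes tested. The 7 at background were not among the genes tested, so these shares are not like for like. Lyz2 was at 0.04 ± 0.77 and Cd68 at -0.37 ± 0.09 (SD, n = 2), both named after their values were seen.

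**Figure D4:**
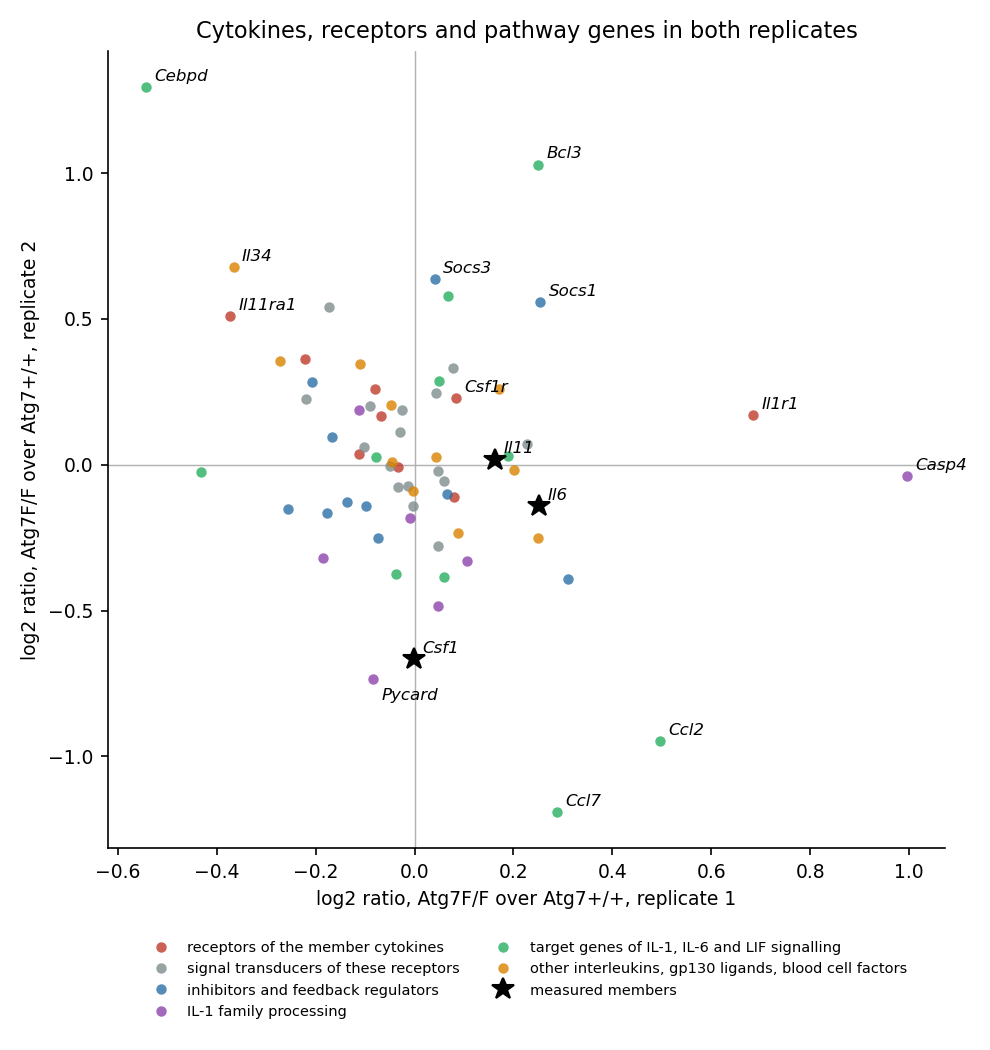
Log2 ratio of Atg7F/F over Atg7+/+ in replicate 1 (horizontal) and replicate 2 (vertical) for every measured receptor, transducer, inhibitor, processing gene, target and other cytokine, coloured by list, with stars for Csf1, Il6 and Il11. Socs1, Bcl3, Il1r1 and Csf1r lie above 0 in both replicates, while Ccl2 and Ccl7 lie above 0 in replicate 1 and below 0 in replicate 2, and Il34 and Cebpd the other way round.

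Of 37 other interleukins, gp130 ligands and blood cell growth factors, 11 were measured and 23 stayed at background throughout. Of the 11, 0 were lower on all 4 arrays, against 9.94% of all genes tested, the median was 0.04 and 0 were called. Kitl, which encodes stem cell factor, was at 0.09 ± 0.16, Flt3l at 0.12 ± 0.32 and the gp130 ligand Ctf1 at 0.08 ± 0.18 (SD, n = 2). None of these passed the threshold.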

How the data were processed

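The deposited scanner files give each spot's mean intensity and the median intensity of its local background, not normalised, and per the file headers they come from version 10.1.1.1 of Agilent Feature Extraction. A log10 ratio of the red over the green channel stands in them too, per the file headers. The authors' deposited value table holds log2 ratios of the processed signals, turned to Atg7F/F over Atg7+/+, which matched the scanner files within 0.001 for 100% of probes with a single spot; its column medians were 0.199, -0.094, 0.081 and -0.037, so it was not centred further.

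Mean intensities were corrected with normexp (offset 50) in limma 3.58.1 and R 4.3.3 and loess-normalised with control spots at weight 0. Repeated spots were averaged without population outliers, and 36 probes with a non-uniform spot were left out. Every ratio was set as Atg7F/F over Atg7+/+, and dye swaps were averaged (n = 2). Probes well above background in at least 1 genotype on all 4 arrays were kept (17109), and the brightest stood for each gene, 25097 probes being named through RefSeq. Ratios were tested against 0 with lmFit and eBayes (two-sided, 3.18 degrees of freedom, Benjamini-Hochberg, threshold 0.05), which was tested on simulated data. Every adjusted p is limma's.

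Each array pairs extracts of one number, so the pairing is part of the test; deviations of same-numbered extracts correlated at 0.18. The labels do not say that replicates came from separate animals, so p-values measure only the spread between these samples, and the number of arrays limits precision. All members, every measured receptor and up to 4 genes per other list with the smallest unadjusted p are named. One gene that this rule names is not reported here. Members and lists were chosen with earlier results of these data known. The alternatives are in the closing section.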

Additional observations from a re-analysis of the deposited data

How the results depend on the processing

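The count of 0 genes called by limma, with 368 at an unadjusted p below 0.05, stayed at 0 under normexp without offset, no background subtraction, processed signals, the authors' deposited table, median centring, no filter, a filter in both genotypes and every probe. It became 1 without the replicate block and 9 with 4 arrays and the pair as a random block. With 1 replicate left out there are no residual degrees of freedom and no count. Genes higher on all 4 arrays numbered 601 with median centring and 2316 without a filter, and genes lower 265 and 1960. On the 2 arrays left without a replicate these counts ranged from 3622 to 4718 and from 3691 to 4333, partly because fewer arrays have to match. The Csf1 and Il11 ratios kept their sign in 12 of 12 alternatives, from -0.67 to -0.0017 and from 0.02 to 0.16. For the 3 tested members, changes of filter, probe choice or block cannot alter the mean ratio, and the deposited table repeated the processed signals. Those settings add no check of a sign. Csf1 was at -0.0017 without replicate 2, so its fall rests on that replicate. The Il6 ratio kept its sign in 11 of 12, from -0.14 to 0.25. It was reversed at -0.14 without replicate 1, so its sign rests on that replicate. No member passed the threshold in any fit. For the dim probes, signal over background limits what can be seen.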
